A study of Mus musculus with 6 samples.

Results

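The IFI200 family, also called the PYHIN or HIN200 family, is a cluster of interferon-activated genes on mouse chromosome 1. The description below covers 8 of these genes, Aim2, Ifi203, Ifi204, Ifi207, Ifi209, Ifi211, Ifi213 and Mndal, of the 53801 genes in the deposited table of counts. They were taken by gene name. Of the 8, 7 were listed under these names, and Ifi211 was found by its Ensembl identifier, because the table lists it under the older name Mnda. All 8 reached 10 counts or more when summed over the libraries and were among the 23975 genes tested.

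RNA-seq compared a brain hemisphere of each of 3 Bahd1-WT mice (Bahd1+/+) and 3 Bahd1-KO mice (Bahd1-/-). Bahd1 encodes a protein of repressive chromatin, and the knockout mice were bred from heterozygous parents. The mice of both genotypes were C57BL/6 adults at about 70 weeks of age, with no treatment other than the knockout, and each library came from 1 mouse. The comparison asks how the absence of Bahd1 changes the level of each transcript in the adult brain.

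Most IFI200 proteins combine a pyrin domain, through which they assemble with other proteins, and 1 or more HIN domains, which bind double-stranded DNA. AIM2 senses DNA in the cytosol and builds an inflammasome with the adaptor PYCARD and caspase 1, while several relatives act in the nucleus or feed the STING pathway that leads to type I interferon. The genes are themselves induced by interferon, and in the brain they are best known from microglia, from macrophages and from infiltrating immune cells.

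Type I interferon acts on many of its target genes through the interferon-stimulated response element (ISRE), whose core is GAAA, any 2 bases, then GAAA. The RefSeq promoters of build GRCm38.p6, 250 bases before to 50 bases after each annotated start, were searched for this core on both strands. A promoter was listed for 7 of the 8 genes, the exception being Ifi204. The core was found in 5 of these 7, against 3.44% of the 32851 promoters of the table (1131 promoters). The 5 matches on the strand of the gene lay between positions -73 and -26 relative to the annotated start, and the windows of 60 bases around them are printed here because they show which stretch these promoters share. Capitals mark the core, and all 5 windows are from the minus strand.
Ifi213, chr1:173599311-173599370: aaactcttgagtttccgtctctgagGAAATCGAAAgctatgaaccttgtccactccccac
Ifi207, chr1:173741816-173741875: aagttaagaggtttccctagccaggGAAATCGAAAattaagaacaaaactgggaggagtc
Mndal, chr1:173880189-173880248: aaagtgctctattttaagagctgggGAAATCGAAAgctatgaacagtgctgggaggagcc
Ifi211, chr1:173913049-173913108: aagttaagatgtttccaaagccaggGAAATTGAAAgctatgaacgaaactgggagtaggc
Ifi203, chr1:173942493-173942552: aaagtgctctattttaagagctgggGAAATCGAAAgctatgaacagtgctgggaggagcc

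The windows of Mndal and Ifi203 were identical at all 60 bases, and those of Ifi207 and Ifi211 were identical at 50 of 60. In 4 of the 5 genes the core read GAAATCGAAA, and in Ifi211 it read GAAATTGAAA. Mndal and Ifi203 each had 2 annotated starts. The other start of Mndal had a match on the opposite strand, at positions -54 to -45, and the other start of Ifi203 had none. No match was found in the windows of Aim2 and Ifi209. Among the other IFI200 genes of the cluster, 4 of the 5 with a listed promoter, Ifi205, Ifi206, Ifi208 and Ifi214, also held the core. The window of Ifi208 around its match was identical to that of Ifi213. A further element, TTC, any 3 bases, then GAA, which is the gamma-activated sequence (GAS) of interferon gamma targets, occurred in the promoter of Ifi202b and in no promoter of the 7 genes, against 8.3% of all promoters.

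**Figure D1:**
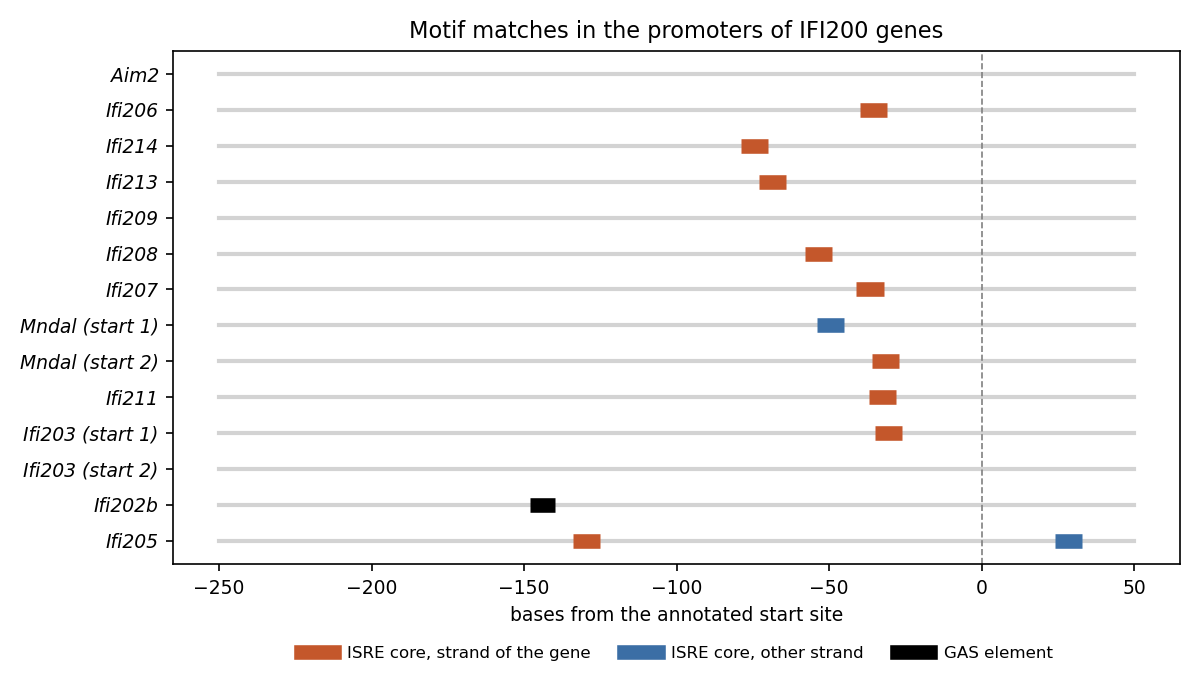
Positions of ISRE core and GAS matches in the 14 RefSeq promoters of 12 IFI200 genes, from 250 bases before to 50 bases after each annotated start (horizontal axis, in bases). Orange bars are ISRE cores on the strand of the gene, blue bars ISRE cores on the opposite strand and the black bar is the GAS match of Ifi202b. The matches of Ifi206, Ifi207, Ifi211, Ifi203 and the second start of Mndal sit between positions -41 and -26, while Aim2 and Ifi209 have none.

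The libraries held 42297150 to 93557948 counts, and 3 counts corresponded to 0.0315 to 0.0689 CPM, the counts scaled by the normalized library size. Bahd1 had 1383, 844 and 1099 counts in Bahd1-WT and 0, 14 and 1 in Bahd1-KO, in keeping with the genotype on each label. The neuron markers Snap25, Rbfox3, Syt1, Slc17a7 and Gad1 summed to 5590 to 7320 CPM in the 6 libraries. In contrast, 9 markers of lung epithelium, a tissue foreign to the brain, summed to 119, 27.7 and 2.66 CPM in Bahd1-WT replicates 1, 2 and 3 and to 0.666 to 1.87 CPM in the Bahd1-KO libraries. The labels name no batch of extraction or sequencing.

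All 8 IFI200 genes had a lower fitted level in Bahd1-KO than in Bahd1-WT brains, with log2 fold changes from -1.79 for Ifi213 to -0.85 for Aim2 and a median of -1.22, beside a median of -0.06 over all genes tested. The estimated difference was at least 2-fold in 6 of the 8 genes, against 7.19% of all genes in that direction. None of the 8 passed an adjusted p of 0.05 in edgeR's quasi-likelihood test with Benjamini-Hochberg adjustment, which called 0.00417% of all genes lower in Bahd1-KO (1 gene, and 2 genes in either direction). At an unadjusted p under 0.05, edgeR had 7 of the 8 lower, against 12% of all genes. DESeq2 with the normal prior, the kind of test the study used, called 5 of the 8 lower at an adjusted p under 0.05, against 2.89% of all genes. These 5 were Mndal, Ifi204, Ifi203, Ifi213 and Ifi207. In 6 of the 8 genes all 3 Bahd1-KO mice lay below all 3 Bahd1-WT mice, against 19.3% of all genes. The edgeR result depended on Bahd1-KO replicate 1, the shallowest library: without it 5 of the 8 passed, as did 30% of all genes in either direction. DESeq2 called 3 of the 8 without Bahd1-WT replicate 1, without Bahd1-WT replicate 2 or without Bahd1-KO replicate 2, and 4 to 6 without each of the other mice. The fits that called 3 gave Ifi213 no adjusted p. In a brain hemisphere, fewer cells of a type and less RNA per cell cannot be told apart.

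**Figure D2:**
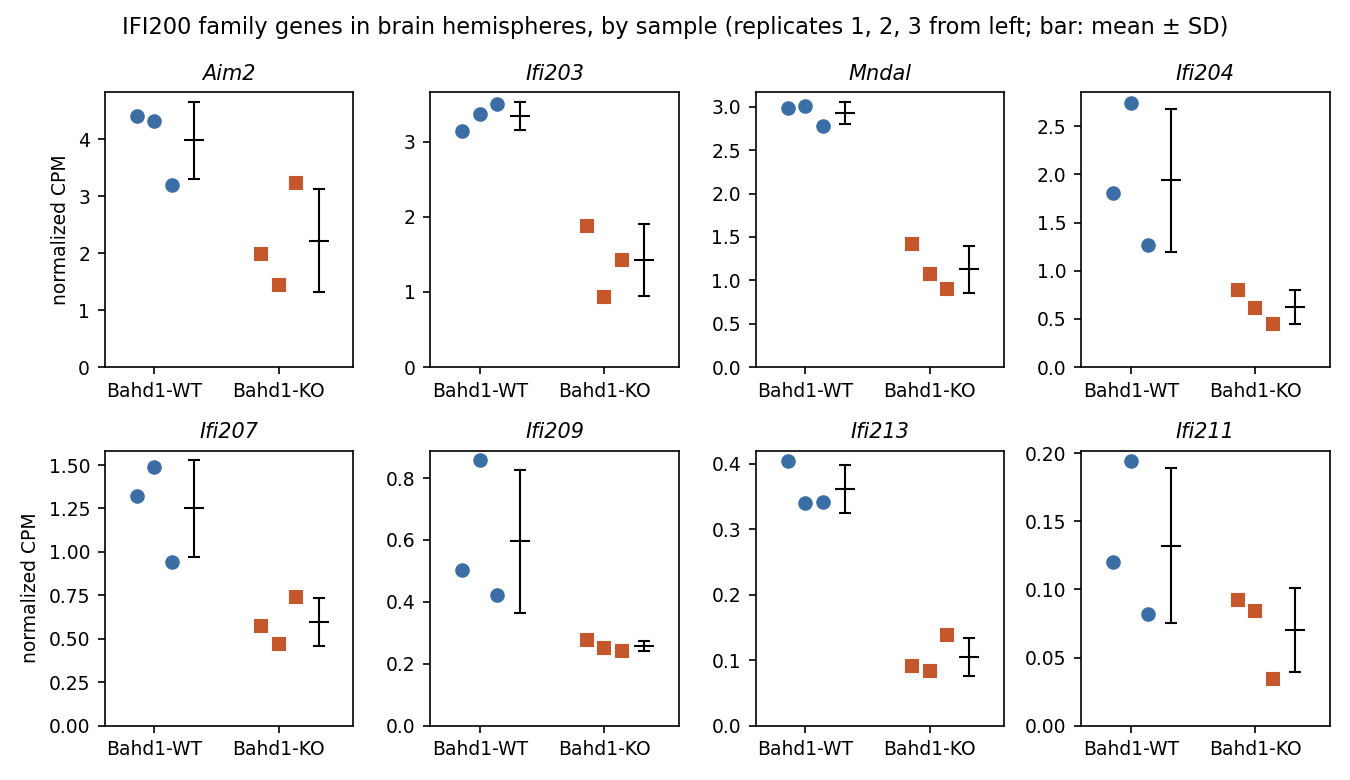
Normalized CPM (vertical axes, linear, from 0) of the 8 IFI200 genes in the 3 Bahd1-WT and 3 Bahd1-KO mice, 1 point per mouse, with the mean ± SD of each genotype beside the points. The genotypes are apart in 6 panels and overlap for Aim2 and Ifi211.

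Aim2 (chr1:173350879-173466040, plus strand, in the GENCODE M21 annotation of GRCm38) encodes the inflammasome sensor. Its normalized CPM was 4.41, 4.32 and 3.19 in Bahd1-WT replicates 1, 2 and 3 and 1.98, 1.45 and 3.23 in Bahd1-KO replicates 1, 2 and 3, from 86 to 404 counts a library. Bahd1-KO replicate 3 was as high as Bahd1-WT replicate 3, so the genotypes overlapped, and the other 2 Bahd1-KO mice were lower. The means were 3.98 ± 0.68 and 2.22 ± 0.91 CPM (SD, n = 3). The log2 fold change was -0.85 (SE 0.32), with an adjusted p of 0.118 in edgeR and 0.0616 in DESeq2.

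Ifi204 (chr1:173747293-173766943, minus strand) encodes the p204 protein, the mouse relative of human IFI16 that has been placed upstream of STING. Its normalized CPM was 1.81, 2.74 and 1.27 in Bahd1-WT and 0.804, 0.619 and 0.449 in Bahd1-KO, from 26 to 169 counts. The genotypes did not overlap, and Bahd1-WT replicate 2 was more than double Bahd1-WT replicate 3. With a log2 fold change of -1.64 (SE 0.35), Ifi204 was estimated to be 3.12-fold lower, with an adjusted p of 0.0634 in edgeR and 0.000799 in DESeq2.

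Mndal (chr1:173849126-173942491, minus strand), named for its likeness to the human myeloid cell nuclear differentiation antigen, was among the least variable of the genes within Bahd1-WT. Its CPM was 2.98, 3.01 and 2.78 in Bahd1-WT and 1.42, 1.07 and 0.898 in Bahd1-KO, from 52 to 273 counts. The lowest Bahd1-WT value was close to double the highest Bahd1-KO value. The log2 fold change was -1.38 (SE 0.25), with an unadjusted p of 0.000387 in edgeR, the smallest of the 8 genes, and adjusted p values of 0.0634 in edgeR and 0.000108 in DESeq2.

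Ifi203 (chr1:173920407-173942672, minus strand) overlaps the gene model of Mndal on the same strand and encodes a nuclear family protein. Its CPM was 3.14, 3.37 and 3.5 in Bahd1-WT and 1.88, 0.934 and 1.43 in Bahd1-KO, from 82 to 287 counts. As for Mndal, the Bahd1-WT mice were tightly grouped, at 3.34 ± 0.19 CPM, and the Bahd1-KO mice were spread more widely, at 1.42 ± 0.48 CPM (SD, n = 3). The log2 fold change was -1.25 (SE 0.29), with adjusted p values of 0.0634 in edgeR and 0.00123 in DESeq2.

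Ifi207 (chr1:173723427-173741747, minus strand), another nuclear HIN protein gene, had 1.32, 1.49 and 0.941 CPM in Bahd1-WT and 0.575, 0.472 and 0.743 CPM in Bahd1-KO, from 25 to 121 counts. Its groups were apart by the gap between Bahd1-WT replicate 3 and Bahd1-KO replicate 3 alone, and the other mice were further apart. The log2 fold change was -1.07 (SE 0.29), with adjusted p values of 0.065 in edgeR and 0.0212 in DESeq2.

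The remaining 3 genes were measured with few counts. Ifi213 (chr1:173566283-173599274, minus strand) had 37, 21 and 25 counts in Bahd1-WT and 4, 8 and 8 in Bahd1-KO, or 0.362 ± 0.037 and 0.105 ± 0.029 CPM (SD, n = 3). The genotypes were well apart, and the log2 fold change of -1.79 (SE 0.37) was the largest in size of the 8, with adjusted p values of 0.0634 in edgeR and 0.0132 in DESeq2. Ifi209 (chr1:173630917-173647928, plus strand) had 46, 53 and 31 counts in Bahd1-WT and 12, 24 and 14 in Bahd1-KO, or 0.595 ± 0.23 and 0.257 ± 0.017 CPM. Its 3 Bahd1-KO values were nearly equal at 0.242 to 0.276 CPM, below the lowest Bahd1-WT value of 0.423 CPM. The log2 fold change was -1.2 (SE 0.35), with adjusted p values of 0.0705 in edgeR and 0.0515 in DESeq2.

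Ifi211 (chr1:173896345-173913046, minus strand) had 11, 12 and 6 counts in Bahd1-WT and 4, 8 and 2 in Bahd1-KO. These correspond to 0.132 ± 0.057 and 0.0702 ± 0.031 CPM (SD, n = 3), the genotypes overlapped, and the log2 fold change of -0.87 had an SE of 0.57 (edgeR adjusted p = 0.303). DESeq2 gave it no adjusted p. Its SE was the largest of the 8 genes.

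The 8 genes were low in GC content, at 38.8% to 43.9% of exonic bases with a median of 40.4%, against a median of 49.1% over the genes tested. Among genes of such GC content, lower levels in the Bahd1-KO libraries were common. Over the 3992 genes tested with a GC content in the range of the 8, the median log2 fold change was -0.53, 35.4% were lower with an unadjusted edgeR p under 0.05, 15.3% were at least 2-fold lower, and 46.3% had all Bahd1-KO mice below all Bahd1-WT mice. To measure how far the difference moved with GC content, the level expected from GC content and length was fitted in each library and used as an offset. The offset expected the 8 genes to differ between Bahd1-KO and Bahd1-WT by -0.55 (Ifi207) to -0.83 (Ifi203) on the log2 scale, and Bahd1-KO replicate 2 took the most negative offset for every gene.

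With this offset all 8 fitted log2 fold changes were still negative, but their median was -0.48, beside 0.11 over all genes. edgeR then gave 4 of the 8 an unadjusted p under 0.05, against 5.93% of all genes lower. Without Bahd1-WT replicate 1 this count was 0, and with the offset and the replicate block it was 1. The 4 were Ifi213 at -1.04 (SE 0.39), Ifi204 at -0.81 (SE 0.31), Ifi203 at -0.46 (SE 0.18) and Mndal at -0.57 (SE 0.24) on the log2 scale. In this edgeR fit their unadjusted p ran from 0.0239 to 0.037 and their adjusted p from 0.148 to 0.182. None of the 8 passed an adjusted p of 0.05 with the offset, in edgeR (0.00834% of all genes lower) or in DESeq2 (1.91% of all genes lower). DESeq2 with the offset gave Ifi213 and Ifi211 no adjusted p, so these genes could not pass there. Aim2, Ifi209, Ifi207 and Ifi211 had offset log2 fold changes from -0.5 to -0.19. Without Bahd1-KO replicate 2 the offset median was -0.67, and without Bahd1-WT replicate 1 it was -0.44.

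**Figure D3:**
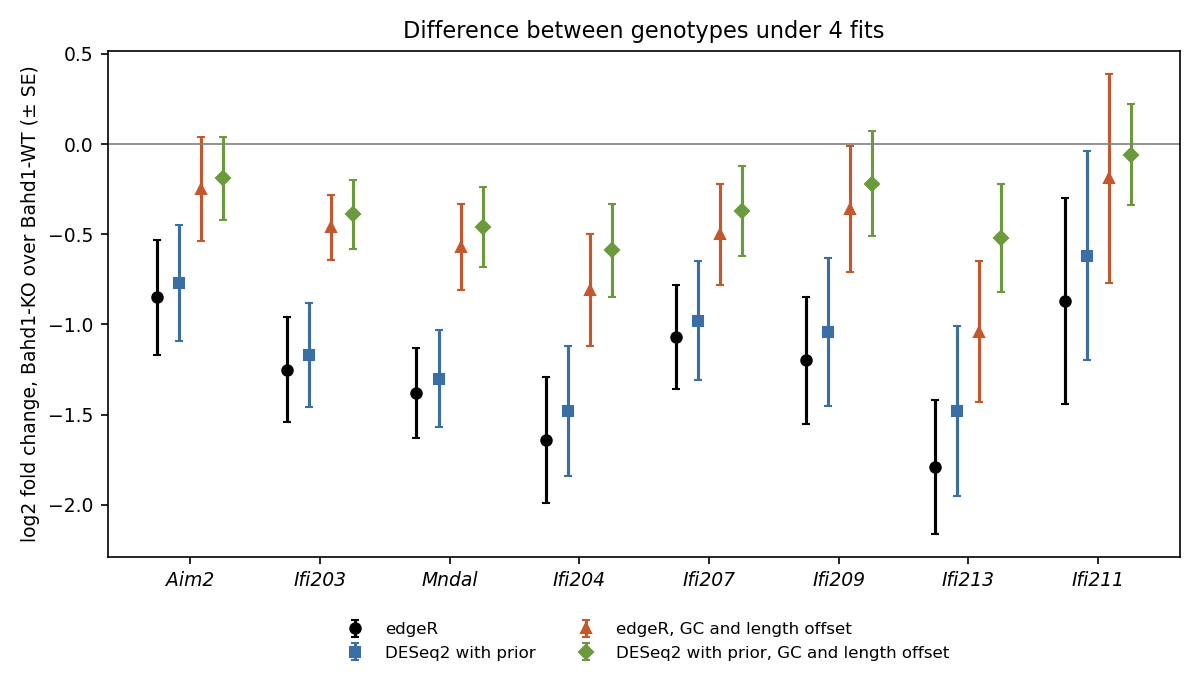
Log2 fold change of Bahd1-KO over Bahd1-WT (vertical axis, ± SE) of each IFI200 gene in 4 fits, edgeR and DESeq2 with the normal prior, each without and with the GC and length offset. Every point lies below 0, and the points with the offset (triangles and diamonds) lie nearer to 0 than those without it.

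Levels were compared between the genes as normalized CPM per kilobase of exon. In Bahd1-WT brains Aim2 had the highest level, 1.14 ± 0.19 CPM per kb, followed by Mndal at 0.806 ± 0.035, Ifi204 at 0.545 ± 0.21, Ifi203 at 0.497 ± 0.028 and Ifi207 at 0.366 ± 0.082 CPM per kb (SD, n = 3). The lowest levels were those of Ifi209 at 0.168 ± 0.065, Ifi211 at 0.074 ± 0.032 and Ifi213 at 0.0529 ± 0.0054 CPM per kb. The spreads between mice (mean ± SD) of Ifi204 overlapped those of Ifi203 and Ifi207. Those of Ifi209 and Ifi211, and of Ifi211 and Ifi213, also overlapped. All genes were measured in the same mice, so such overlap does not compare genes within a mouse, and their order within each mouse was not tested. In Bahd1-KO brains Aim2 was again first with 0.634 ± 0.26 CPM per kb and Ifi213 last with 0.0153 ± 0.0043. The spread of Mndal, at 0.312 ± 0.074, overlapped those of Aim2 and of Ifi203 at 0.211 ± 0.071. The spreads of Ifi203, Ifi204 at 0.175 ± 0.05 and Ifi207 at 0.174 ± 0.04 CPM per kb overlapped as well. Exon length counted the exons of all annotated transcripts of a gene, so the level of a gene with many alternative exons, such as Ifi213 or Ifi203, is understated. Where reads of shared sequence were left uncounted, the levels of Ifi211 and Ifi209 would be understated too.

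The 8 genes together summed to 14.7, 16.3 and 12.5 CPM in Bahd1-WT and to 7.12, 4.97 and 7.17 CPM in Bahd1-KO. The makeup of this sum was compared between genotypes by an exact two-sided permutation test, which cannot give a p below 0.1 with 3 mice against 3 and so could not pass 0.05 for any gene. The share of Aim2 in the summed CPM was 27.3% ± 2.4 in Bahd1-WT and 34% ± 9.6 in Bahd1-KO (SD, n = 3, exact permutation p = 0.3, Benjamini-Hochberg adjusted p = 0.686 over the 8 shares). For Ifi213 the share was 2.52% ± 0.38 and 1.64% ± 0.32 (exact permutation p = 0.1, the smallest possible, adjusted p = 0.686), and its shares did not overlap, at 2.08% to 2.75% in Bahd1-WT and 1.29% to 1.93% in Bahd1-KO. For the other 6 genes the exact p ranged from 0.4 to 0.9. In Bahd1-KO replicate 3, Aim2 made up 45.1% of the sum, more than in any other mouse.

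Mice of the same genotype also differed. On a log2 scale centred on each gene's mean, the average of the 8 genes was 0.61, 0.85 and 0.32 in Bahd1-WT replicates 1, 2 and 3 and -0.42, -0.76 and -0.59 in Bahd1-KO replicates 1, 2 and 3. Bahd1-WT replicate 2 had the highest value of the 6 mice for Ifi204, Ifi207, Ifi209, Mndal and Ifi211, and Bahd1-WT replicate 3 the lowest of the Bahd1-WT mice for all genes but Ifi203 and Ifi213. Aim2 departed from the rest in Bahd1-KO replicate 3, at 0.17 against the average of -0.59.

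Markers of the cell types that could carry these transcripts were set beside them. The 10 microglia markers, among them Cx3cr1 and P2ry12, summed to 333 to 389 CPM in Bahd1-WT and 277 to 360 CPM in Bahd1-KO, and at an unadjusted edgeR p under 0.05, 0 of the 10 were lower and 3 were higher, against 12% and 19.9% of all genes. DESeq2 called the microglia genes Tmem119 and Trem2 higher, as it did 14.3% of all genes, with edgeR log2 fold changes of 1.37 and 0.9 and DESeq2 adjusted p values of 0.000481 and 0.0214, and with the offset these log2 fold changes were 0.22 and 0.6. Per 100 counts of these markers, the 8 IFI200 genes had 3.78, 4.9 and 3.41 counts in Bahd1-WT and 1.98, 1.79 and 2.04 in Bahd1-KO, so the genotypes did not overlap. They also did not overlap per 100 counts of 6 endothelial markers, at 7.89 to 10.5 in Bahd1-WT and 2.3 to 4.34 in Bahd1-KO. Of these 6 markers, 0 were lower and 1 was higher at an unadjusted edgeR p under 0.05, namely Cldn5, a tight junction gene, with 240, 2861 and 454 counts in Bahd1-KO and 295, 78 and 209 in Bahd1-WT (edgeR log2 fold change 2.56, and 0.97 with the offset). With the offset 5 of the 6 were higher at that threshold, against 17.7% of all genes, and their median log2 fold change was 0.5. The 6 markers of border macrophages, which line the vessels and meninges, summed to 14.7 to 26.7 CPM in Bahd1-WT and 7.81 to 14.2 CPM in Bahd1-KO. Per 100 counts of these, the 8 genes had 55.1, 111 and 82.1 counts in Bahd1-WT and 50, 63.6 and 57.2 in Bahd1-KO. The genotypes overlapped through Bahd1-WT replicate 1 alone, the library richest in lung markers, which also had 5.26 CPM of the border macrophage marker Cbr2 against 0.354 to 1.38 CPM in the other 5. Without Cbr2, left out after the values were seen, they overlapped at 68.6, 119 and 84 counts in Bahd1-WT and 52.1, 77.2 and 59.9 in Bahd1-KO. Of the 6 border macrophage markers, 1 was lower and 0 were higher at an unadjusted edgeR p under 0.05, against the same 12% and 19.9% of all genes. This was Lyve1, a hyaluronan receptor gene, at a log2 fold change of -1.1 (DESeq2 adjusted p = 0.0441). With the offset 2 of the 6 were lower and 0 higher at that threshold, against 5.93% and 17.7% of all genes. These 2 were Cbr2 at -2.38 and Lyve1 at -0.82, and the median of the 6 was -0.09. DESeq2 with the offset called 0 of the 6 lower, against 1.91% of all genes, with an adjusted p of 0.0996 for Lyve1.

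Monocyte and neutrophil markers (8 genes) summed to 8 to 9.7 CPM in Bahd1-WT and 2.25 to 7.67 CPM in Bahd1-KO, and per 100 of their counts the 8 IFI200 genes overlapped between genotypes, at 137 to 204 in Bahd1-WT and 93.5 to 221 in Bahd1-KO. Of these 8 markers, 3 were lower and 1 was higher at an unadjusted edgeR p under 0.05, against 12% and 19.9% of all genes. DESeq2 called 2 of them lower, as it did 2.89% of all genes. These were Mmp8, a neutrophil collagenase gene, at an edgeR log2 fold change of -1.69 (DESeq2 adjusted p = 0.00674), and S100a8, a calcium-binding protein gene of neutrophils and monocytes, at -1.28 (DESeq2 adjusted p = 0.0141). The other markers ran from -1.08 for Ccr2 to 1.59 for Camp. With the GC and length offset, 2 of the 8 were lower and 0 higher at an unadjusted edgeR p under 0.05, against 5.93% and 17.7% of all genes. These 2 were Mmp8 at -1.18 and S100a8 at -1.01. DESeq2 with the offset called 1 lower, S100a8 (adjusted p = 0.0303), against 1.91% of all genes, and gave Mmp8 an adjusted p of 0.0606. Lymphocyte markers (8 genes) summed to 8.68 to 9.91 CPM in Bahd1-WT and 7.24 to 8.9 CPM in Bahd1-KO. Per 100 of their counts the 8 genes had 131 to 188 counts in Bahd1-WT and 55.8 to 98.4 in Bahd1-KO, but Cd4 alone held 83.2% to 93.3% of these marker counts. Per 100 counts of the other 7 markers, chosen after the values were seen, the genotypes overlapped, at 885, 1145 and 1107 in Bahd1-WT and 1148, 830 and 741 in Bahd1-KO. Of the 8 lymphocyte markers, 1 was lower and 0 were higher at an unadjusted edgeR p under 0.05, so the share lower was near the 12% of all genes. This was Btla, an inhibitory receptor gene, at -2.08 (DESeq2 adjusted p = 0.000185), while the other 7 had log2 fold changes from -1.39 for Ms4a1 to 0.59 for Cd3g, with -0.09 for Cd4. Under the offset, 1 of the 8 was lower, Btla at -1.36, and 1 was higher, Cd3g at 1.28, at an unadjusted edgeR p under 0.05. DESeq2 with the offset called Btla lower (adjusted p = 0.021), as it did 1.91% of all genes. The part of microglia, endothelium, border macrophages, monocytes, neutrophils and lymphocytes in the difference was not tested. The values per 100 marker counts carry no offset for GC content and length. Of the lung epithelium markers, 9 of 9 had a negative fitted log2 fold change, and 8 were lower at an unadjusted edgeR p under 0.05, against 12% of all genes. All Bahd1-KO mice lay below all Bahd1-WT mice for 6 of the 9, against 19.3% of all genes. Bahd1-WT replicate 3, with 2.66 CPM of these lung markers, had 12.5 CPM of the 8 IFI200 genes. Without Bahd1-WT replicate 1, the library richest in them, the median log2 fold change of the 8 was -1.3, with Bahd1-WT replicate 2 and its 27.7 CPM kept. The part of lung RNA in the difference was not tested.

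**Figure D4:**
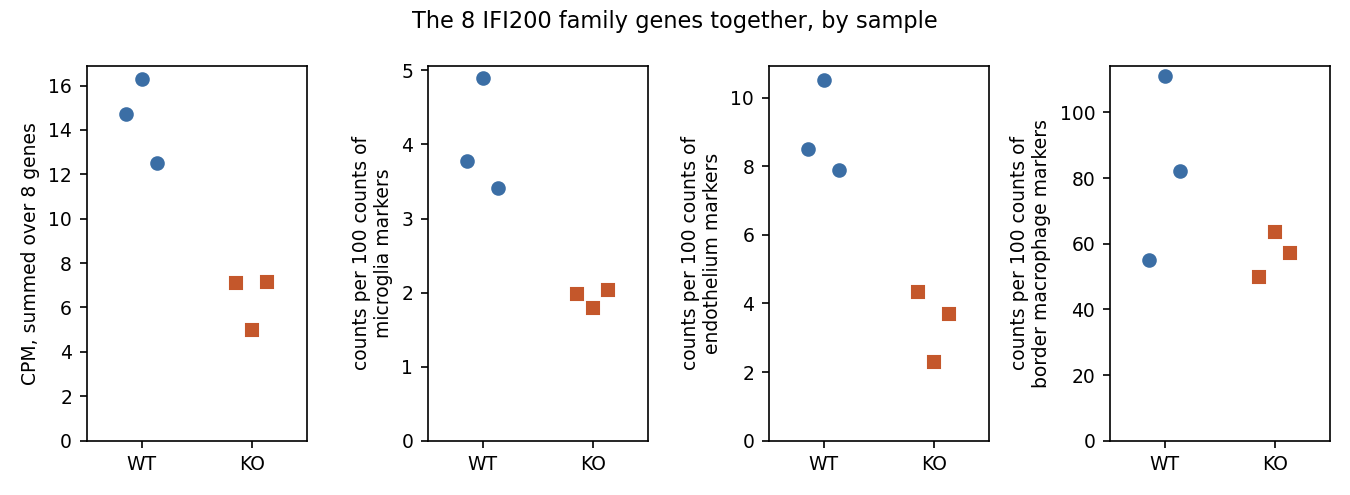
The 8 IFI200 genes together in each mouse, as summed normalized CPM and as counts per 100 counts of microglia, endothelium and border macrophage markers (vertical axes, linear, from 0). Bahd1-WT mice (circles) lie above Bahd1-KO mice (squares) in the first 3 panels, and in the border macrophage panel the lowest Bahd1-WT mouse, at 55.1, lies among the Bahd1-KO mice.

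The 8 genes span 592 kb of chromosome 1, from the start of Aim2 to the end of Ifi203. Within the cluster and 500 kb to either side, 16 genes had at least 10 counts in all. Of the IFI200 genes outside the 8, Ifi206 had 12, 10 and 12 counts in Bahd1-WT and 1, 8 and 0 in Bahd1-KO, with a log2 fold change of -1.8 (SE 0.75, edgeR adjusted p = 0.142). The pseudogene Ifi203-ps had 27, 11 and 14 counts in Bahd1-WT and 7, 3 and 8 in Bahd1-KO, with a log2 fold change of -1.13 (SE 0.58, edgeR adjusted p = 0.208). Both had all Bahd1-KO mice below all Bahd1-WT mice on the CPM scale, an order seen in 19.3% of all genes. It was seen in 46.3% of the genes with a GC content in the range of the 8, which takes in Ifi203-ps at 42.6%. Ifi205 and Ifi202b were near the limit of detection, with 8, 0 and 2 against 0, 2 and 0 counts for Ifi205 and 0, 0 and 2 against 5, 0 and 4 for Ifi202b, the only family gene with more counts in Bahd1-KO. Ifi208, with 2, 2 and 2 against 0, 0 and 1 counts, and Ifi214, with 2, 0 and 0 against 1, 0 and 0, were not tested.

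The nearest neighbours on the side of Aim2 were Cadm3, a cell adhesion gene of neurons, and Ackr1, an atypical chemokine receptor gene. Cadm3 had 386 ± 34 CPM in Bahd1-WT and 518 ± 110 CPM in Bahd1-KO, and the genotypes overlapped (log2 fold change 0.43, SE 0.19, edgeR adjusted p = 0.164). Ackr1 had 29.5 ± 2 and 37.7 ± 4 CPM, with all Bahd1-KO mice above all Bahd1-WT mice (log2 fold change 0.35, SE 0.16, edgeR adjusted p = 0.172), an order seen in 20.6% of all genes. Both genes had higher means in Bahd1-KO, and neither passed the test. Their GC contents were 53.8% and 50.2%, above those of the 8 IFI200 genes, and with the offset their log2 fold changes were 0.09 for Cadm3 and 0.4 for Ackr1. Mptx2, with 0 to 8 counts a library, overlapped between the genotypes.

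**Figure D5:**
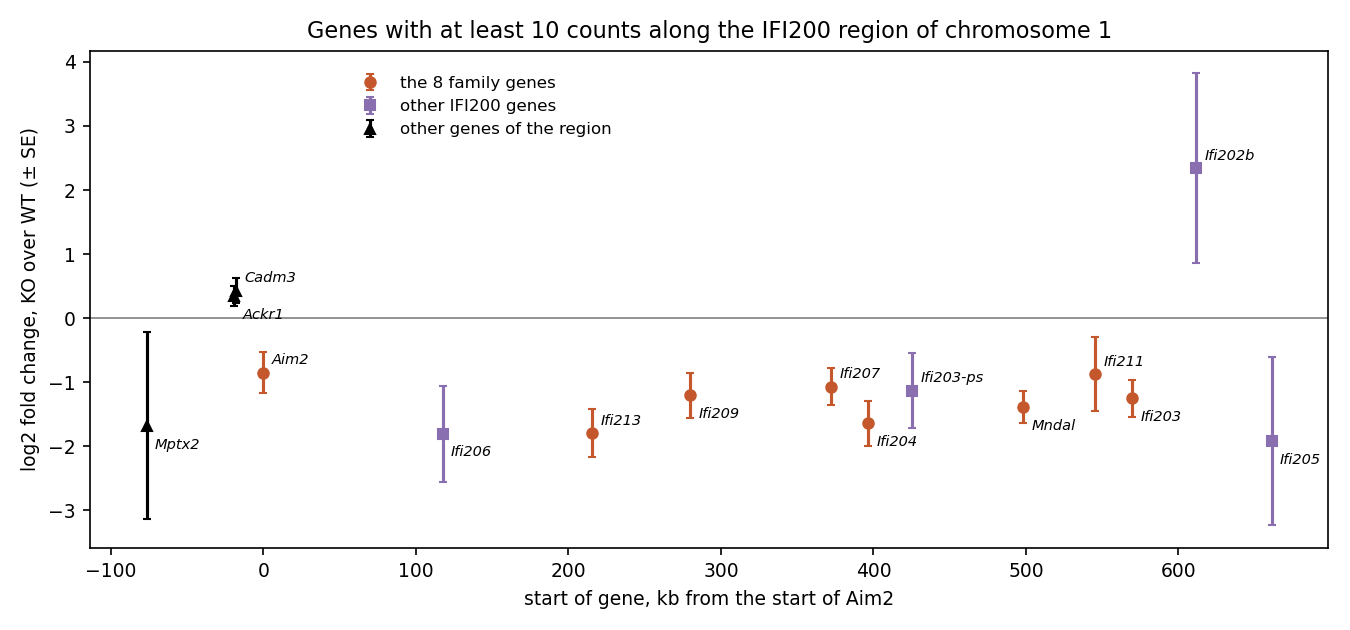
Log2 fold change of Bahd1-KO over Bahd1-WT (vertical axis, ± SE) of 15 of the genes with at least 10 counts, by the distance of their start from that of Aim2 (horizontal axis, kb). The 8 IFI200 genes (circles) lie between -1.79 and -0.85, Cadm3 and Ackr1 lie above 0, and the bars are widest for Mptx2, Ifi205 and Ifi202b, which had at most 8 counts in any library.

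The IFI200 genes are close relatives, and reads from shared stretches cannot be given to 1 gene. Of the 50-base stretches in the transcripts of Ifi211, 72.8% also occurred in another gene, mostly in Ifi205, Ifi204 or Mndal. The share was 33.7% for Ifi209, with Ifi214 as its main partner, 20% for Ifi204, 19.6% for Mndal, 15.6% for Ifi213, 12.4% for Ifi203 and 7.29% for Ifi207. It was 0.742% for Aim2, and 0% with stretches of 65 bases. By the defaults of featureCounts, reads from shared stretches were left uncounted. Levels of Ifi211 and, less so, of Ifi209 are therefore uncertain and would be understated, while those of Aim2 and Ifi207 rest mostly on sequence of their own. Exons of Mndal and Ifi203 overlapped by 37 bases on the same strand.

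The primers the study used for RT-qPCR of Ifi204 and Mndal show the same likeness, and they are printed because the same stretches recur among the genes measured here.
Ifi204 forward: ggggagtggaAaatggcaca
Ifi204 reverse: gcaccatcacttgtttggga
Mndal forward: aggcatcctggagatcaatg
Mndal reverse: ggactggcatttgcatttct

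The Ifi204 forward primer matched no other gene exactly, and the capital marks the 1 base at which it differed from Mndal. The Ifi204 reverse primer also occurred in Ifi207 and in Gm18445. The Mndal forward primer also occurred in Ifi204, Ifi205 and Ifi211, and the Mndal reverse primer in Ifi205 and Ifi211. By RT-qPCR the study reported lower levels of both Ifi204 and Mndal in Bahd1-KO than in Bahd1-WT brains.

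Ifi213, Ifi207, Mndal, Ifi211 and Ifi203, with an ISRE core in the promoter, had log2 fold changes of -1.79, -1.07, -1.38, -0.87 and -1.25. Aim2 and Ifi209, without it, had -0.85 and -1.2, and the difference between these groups was not tested. A match is a run of letters in this window, and binding at it was not measured.

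Genes that act with the IFI200 proteins had log2 fold changes in both directions. Of 18 genes for DNA sensing and the inflammasome, 17 were tested. Their median log2 fold change was 0.06, and edgeR had 1 lower and 2 higher at an unadjusted p under 0.05, against 12% and 19.9% of all genes. It called 0 at an adjusted p under 0.05. Il1b, the cytokine matured by inflammasomes, had 49, 21 and 83 counts in Bahd1-WT and 13, 15 and 18 in Bahd1-KO (log2 fold change -1.43, SE 0.5, edgeR adjusted p = 0.0991), and with the GC and length offset its log2 fold change was -1.09. Casp4, the caspase of the noncanonical inflammasome, had a log2 fold change of -0.6 (SE 0.31), which turned to 0.11 with the offset, and overlapped between the genotypes. Ddx41, a helicase proposed as a DNA sensor, and Gsdmd, the pore protein of pyroptosis, had log2 fold changes of 1.13 (SE 0.34) and 0.78 (SE 0.27), and DESeq2 called both higher, with adjusted p values of 0.0101 and 0.0459, as it did 14.3% of all genes. Their GC contents were 57.3% and 54.7%, and the offset for GC content and length gave log2 fold changes of 0.17 and 0.26. With this offset 3 of the 17 were lower and 1 was higher at an unadjusted edgeR p under 0.05, against 5.93% and 17.7% of all genes. Trex1, which encodes a DNA exonuclease, was at 0 counts in all 6 libraries.

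Of the 12 genes for interferon receptors and signalling, 1 was lower and 2 were higher at an unadjusted edgeR p under 0.05, against 12% and 19.9% of all genes. edgeR called 0 at an adjusted p under 0.05, and the median log2 fold change was 0.04. Jak2, a kinase of the pathway, had the lowest log2 fold change, -0.49 (SE 0.18), which was 0.03 with the GC and length offset. Tyk2, the kinase of the type I interferon receptor, had the highest, 1.1 (SE 0.33), and was called higher by DESeq2 (adjusted p = 0.00891). It was followed by Irf8, a transcription factor of myeloid cells, at 0.45 (SE 0.32), which turned to -0.26 with the offset. Tyk2 has a GC content of 56%, and its log2 fold change with the offset was 0.37. With the offset, 0 of the 12 were lower and 3 higher at an unadjusted edgeR p under 0.05, against 5.93% and 17.7% of all genes. DESeq2 with the offset called both chains of the interferon gamma receptor higher, Ifngr2 at 0.51 (adjusted p = 0.00265) and Ifngr1 at 0.48 (adjusted p = 0.0183), as it did 9.51% of all genes.

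The 15 interferon-stimulated genes outside the IFI200 family had a median log2 fold change of -0.59. At an unadjusted p under 0.05, edgeR had 10 of the 15 lower and 1 higher, against 12% and 19.9% of all genes, and it called 0 at an adjusted p under 0.05. DESeq2 called 5 lower, Ifi44 at -1.05, Ifit1 at -0.84, Rsad2 at -0.81, Parp14 at -0.64 and Ifih1 at -0.6 on the log2 scale, with adjusted p values from 0.00668 to 0.0439, against 2.89% of all genes called lower. It called Bst2, which encodes the virus-tethering protein tetherin, higher at 1.08 (adjusted p = 0.0156), as it did 14.3% of all genes. Isg15, a ubiquitin-like modifier gene, had a log2 fold change of 0.8 (SE 0.37) in edgeR, with overlapping genotypes. The 5 lower genes had a GC content of 40.8% to 46.2% and Bst2 of 56.9%. With the offset the median of the 15 was -0.22, and edgeR had 0 of the 15 past an unadjusted p of 0.05.

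Among 14702 other genes with a mean of at least 1 CPM, those whose profile over the 6 mice was nearest to the average profile of the 8 IFI200 genes were Gm37607, AC132833.3, 4933407K13Rik, Ftx and Trim30a. The measure was the root mean square difference of centred log2 CPM over the 6 libraries, which was 0.0992, 0.106, 0.125, 0.132 and 0.133 for these genes, against a median of 0.637 over all candidates and 0.185 to 0.414 for the 8 IFI200 genes themselves. In all, 43 genes (0.292%) were within 0.2. Trim30a, on chromosome 7, is an interferon-induced gene of the TRIM family, and Ftx, on chromosome X, is a long noncoding RNA of the X-inactivation centre. The 5 genes had log2 fold changes from -1.15 to -1 without the offset. With it they ranged from -0.74 for 4933407K13Rik to -0.01 for Gm37607, whose GC content was 34.4%.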

How the data were processed

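RNA-seq libraries were made from polyadenylated RNA of a brain hemisphere of each of 3 Bahd1-WT and 3 Bahd1-KO mice. The authors deposited whole-number read counts per gene, neither normalized nor filtered, in 1 column per mouse. The submitters' processing notes name cutadapt 1.11, STAR 2.5.0a, featureCounts 1.4.6-p3, DESeq2 1.20.0 and the build GRCm38. The study's methods also name another aligner, and give single-end reads in one place and paired-end reads in another. Per the study's supplement, featureCounts counted exons by gene and strand, and no option to count reads of several genes or sites is listed, so by its defaults such reads were left uncounted. The deposited table has 0 columns from other samples and 0 rows that name no gene.

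Genes whose counts summed to 10 or more were tested with edgeR 4.0.16 (TMM, quasi-likelihood test, genotype as the only factor, Benjamini-Hochberg adjustment over all 23975 genes, R 4.3.3). Total counts ranged from 42297150 to 93557948 per library. Counts and floors are given as measured, without an estimate of error. DESeq2 1.42.0 was an alternative. For the GC and length offset, log2 CPM was regressed in each library on natural splines of GC content (5 degrees of freedom) and log length (3), over 13283 genes. Profiles used a prior count of 2. Gene models came from GENCODE M21 and promoters from RefSeq (GRCm38.p6). The scripts were tested on simulated data. Samples were grouped by the genotype in their labels.

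The 8 genes, the other lists and the alternatives were chosen with earlier results of these data known. Named besides the 8 were Bahd1, list genes with an adjusted p under 0.05 in edgeR, DESeq2 or edgeR with the offset, the 2 largest and 2 smallest log2 fold changes of each pathway list, genes of the locus with at least 10 counts, and the 5 genes of most similar profile. Ifi208, Ifi214, Trex1 and some cell type markers were added after their values were seen. Some genes that this rule names are not reported here. Embryonic brains were not analysed here.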

Additional observations from a re-analysis of the deposited data

How the results depend on the processing

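The number of the 8 genes called by edgeR was 0, and it was also 0 with upper-quartile factors or DESeq2's size factors, with filterByExpr (7 of the 8 tested), with robust shrinkage, with the GC and length offset, and for DESeq2 with the offset. It was 4 with total counts as library sizes, 5 with no filter beyond 1 count, 5 in DESeq2 with and 5 without the prior, and 6 in edgeR's likelihood-ratio test, settings that called 9.4%, 11%, 17.2%, 17.2% and 17% of the genes they tested in either direction. With each library left out in turn from edgeR and DESeq2, and Bahd1-KO replicate 2 or Bahd1-WT replicate 1 from the edgeR offset fit, the number ranged from 0 to 6. In edgeR it was above 0 only without Bahd1-KO replicate 1 (5 genes). DESeq2 called 3 of the 8 without Bahd1-WT replicate 1, without Bahd1-WT replicate 2 and without Bahd1-KO replicate 2, fits that gave Ifi213 no adjusted p. The median log2 fold change of the 8 was -1.22, and it moved to -0.48 with the offset, to -0.48 with the offset and the replicate block and to -0.38 in DESeq2 with the offset. Over the same fits it ranged from -1.35 to -0.44, the latter with the offset and without Bahd1-WT replicate 1. It was -0.67 with the offset and without Bahd1-KO replicate 2, and in DESeq2 it was -0.95 without Bahd1-WT replicate 2 and -0.85 without Bahd1-KO replicate 2. The leave-one-out fits of DESeq2 and of the offset were added after the data were seen.

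No gene changed direction in any of the 27 alternative settings. Across them the log2 fold change ranged from -1.21 to -0.09 for Aim2, from -2.02 to -0.9 for Ifi213 over 22 settings with an adjusted p (and -0.52 in DESeq2 with the offset, which gave it none), and from -1.53 to -0.46 for Mndal. Mndal, Ifi203 and Ifi204 each passed an adjusted p of 0.05 in 12 settings, Ifi207 and Ifi213 in 8, Ifi209 in 2 and Aim2 in 1. Leaving out 1 mouse at a time, 6 to 8 of the 8 genes had all Bahd1-KO mice below all Bahd1-WT mice, against 21.6% to 31.9% of all genes. The labels number the mice of each genotype from 1 to 3, but the deviations of same-numbered mice had correlations of -0.223, -0.244 and -0.0248, so the numbers were not taken as pairs. With the replicate block the number called was 0 and the median log2 fold change was -1.23, and it moved the count over all genes from 2 to 7. The counts of Ifi211, Ifi205 and Ifi202b limit what can be said of these genes.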
